A study of Mus musculus with 6 samples.

Results

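Ribosome biogenesis and nucleolar genes were followed as a list of 45 protein-coding genes, out of 23359 gene symbols measured by RNA sequencing of mouse bone marrow. The members were chosen by name from the table, as subunits of RNA polymerase I, organisers of the nucleolus, core proteins of small nucleolar ribonucleoproteins (snoRNPs), and factors that process precursor ribosomal RNA and assemble the 2 ribosomal subunits. The choice was made with earlier results of these data known. All 45 were found, each on 1 row. The samples were 3 libraries from Gab2+/+ marrow (WT A, B and C) and 3 from Gab2-/- marrow (NULL A, B and C). GAB2 is an adaptor protein that relays signals of cytokine receptors and of the oncoprotein BCR-ABL1 to other signalling proteins, and the series title places the comparison in work on leukaemia caused by BCR-ABL1. Strain, age, treatment, any sorting or culture of the cells and the number of animals were not given in the sources used here. The p-values therefore reflect the spread among these libraries alone, and that spread may be technical.

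Ribosomes are built mainly in the nucleolus. RNA polymerase I transcribes the ribosomal DNA into a long precursor, box C/D snoRNPs guide its methylation and box H/ACA snoRNPs guide its conversion of uridine to pseudouridine, and large sets of assembly factors then cut and fold the precursor into a small and a large subunit. The work takes a large part of the energy of a growing cell, and many of its genes are known targets of the transcription factor MYC in dividing blood cells, early B cells included.

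Levels are FPKM as deposited, which divide the fragments of a gene by its transcript length and by the size of the library. Library depth, estimated from the steps between low values, lay between about 17.58 M fragments in WT B and 68.39 M in NULL A (M, mega). Gab2 measured 2.95 ± 0.466 FPKM in WT and 0.157 ± 0.0410 FPKM in NULL (SD, n = 3 each), so that the groups matched their labels. The tissue label was only partly borne out by marker genes. The 11 neutrophil genes found in the table summed to at most 0.326 FPKM in any library, and Elane, S100a8, S100a9 and Mmp9 were at 0 in all 6. Genes of the B lineage summed to between 2693 and 2982 FPKM in WT and between 4315 and 4576 FPKM in NULL, and 11 of the 13 tested were higher in NULL. The erythroid list ran the other way, at 279 to 362 FPKM in WT and 159 to 184 FPKM in NULL, with Hba-a1, Hba-a2 and Slc4a1 at 0. Most of its sum was the transferrin receptor Tfrc, which dividing cells of many types express. Without Tfrc the list summed to between 10.4 and 90.7 FPKM in WT and at most 0.437 FPKM in NULL. Nearly all of that was globin, with Hbb-b1 at 8.31 FPKM in WT A, 7.21 FPKM in WT B and 58.7 FPKM in WT C but at or near 0 in NULL, so that WT C stood apart. Other lists covered monocytes and macrophages, T and NK cells, megakaryocytes, mast cells and basophils, eosinophils, and stem and progenitor cells. Their sums were at most 7.31 FPKM in any library, each higher in every NULL library than in any WT library. Single genes could run against their list, as did Ccr2 of the monocyte list, at 0.225 to 0.511 FPKM in WT and 0.0620 to 0.0795 FPKM in NULL. Plasma cell genes, mostly Xbp1, summed to between 84.3 and 89.1 FPKM in WT and between 82.8 and 88.4 FPKM in NULL. Among them Sdc1 was lower in NULL, at 4.86 to 6.53 FPKM in WT and 1.16 to 1.76 FPKM in NULL.

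The start of most member genes could be read from RefSeq windows on GRCm38.p6, which span 250 bases before to 50 bases after the annotated start and were present for 39 of the 45 members (not for Rrp12, Gnl2, Rrs1, Npm1, Fbl and Bop1). CACGTG, the E-box bound by MYC and by other factors of its class, was searched on both strands because of the known link between MYC and these genes. It occurred in the windows of 7 of the 39 members (17.9%), against 12.6% of 7408 tested genes with a window and 8.09% of 27025 genes overall. The match is in capitals in each 30-base stretch, written 5′ to 3′ on the strand of the gene, and a match is a run of letters, not evidence of binding.
Mybbp1a (chr11:72441347-72441376, plus strand): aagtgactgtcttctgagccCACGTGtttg
Nle1 (chr11:82908355-82908384, minus strand): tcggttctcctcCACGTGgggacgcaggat
Nop2 (chr6:125131811-125131840, plus strand): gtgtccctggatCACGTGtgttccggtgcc
Pes1 (chr11:3963965-3963994, plus strand): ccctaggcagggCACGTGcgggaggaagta
Tsr1 (chr11:74898092-74898121, plus strand): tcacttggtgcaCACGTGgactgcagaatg
Utp20 (chr10:88826765-88826794, minus strand): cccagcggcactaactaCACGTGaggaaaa
Wdr43 (chr17:71616220-71616249, plus strand): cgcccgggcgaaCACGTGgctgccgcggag

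Only in Nop2 did the E-box lie before the start, with its first base at position -60. In the other 6 it lay in the 50 bases after the start. Other motifs searched on both strands were the ETS site CCGGAAG, present for 12 of 39 members (30.8%) and 23.4% of tested genes, and the NRF1 site, in 7 of 39 (17.9%) and 13.2%. The YY1 site AAGATGGCG was found in 1 of 39 members (2.56%) against 4.32% of tested genes. The fifth of the 5 motifs searched, a palindrome around CGCG, was found in 0 of 39 members against 1.35% of tested genes. The 250 bases before the start are shown for Nop2, which carried 3 motifs, and for Nop58 and Bysl, which carried none and were respectively among the strongest and the least changed members below. Capitals in Nop2 mark, in order, the E-box, the ETS site and the first 4 bases of an NRF1 match that runs across the start.
Nop2 (chr6:125131633-125131882, plus strand): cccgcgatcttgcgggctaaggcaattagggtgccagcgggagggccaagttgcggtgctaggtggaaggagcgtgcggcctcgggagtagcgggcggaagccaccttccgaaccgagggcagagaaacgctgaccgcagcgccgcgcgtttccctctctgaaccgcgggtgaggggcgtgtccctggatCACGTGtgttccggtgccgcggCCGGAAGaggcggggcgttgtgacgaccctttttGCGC
Nop58 (chr1:59684756-59685005, plus strand): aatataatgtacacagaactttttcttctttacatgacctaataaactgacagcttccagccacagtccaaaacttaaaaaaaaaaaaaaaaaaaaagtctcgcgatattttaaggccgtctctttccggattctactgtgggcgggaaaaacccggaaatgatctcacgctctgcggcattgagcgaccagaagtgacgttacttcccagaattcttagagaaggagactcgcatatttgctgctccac
Bysl (chr17:47611493-47611742, minus strand): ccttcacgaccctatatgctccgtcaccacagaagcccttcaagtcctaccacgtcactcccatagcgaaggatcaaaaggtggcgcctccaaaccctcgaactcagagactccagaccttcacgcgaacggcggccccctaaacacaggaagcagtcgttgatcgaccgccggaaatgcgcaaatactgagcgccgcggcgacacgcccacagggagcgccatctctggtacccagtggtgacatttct

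Between WT and NULL, 44 of the 45 members fell, 0 rose and 1, Bysl, did not pass the test, while between 39 and 42 fell on 3 other scales given below. The test was limma on log2(FPKM + 1), two-sided, over the 9916 genes whose mean over all libraries reached 1 FPKM, with Benjamini-Hochberg adjusted p of at most 0.05, and all 45 members passed that filter. Over all tested genes 42% were called lower and 23.3% higher, so that a lower call alone was common. A fall of 1 or more on the log2 scale was made by 29 of 45 members and by 5.99% of all tested genes. In 44 of 45 members every NULL library read below every WT library, which was true of 45.1% of all tested genes. The members had a median log2 change of -1.06, with a range of -1.63 to -0.13, beside a median of -0.13 over all tested genes. As a share of the WT mean the NULL mean had a median of 46.6% over members, and it lay below 50% in 30 members, between 50% and 75% in 14 and above that in 1. Whether the cells were mixed or sorted was not given. In a mixture, fewer cells of a type and less RNA per cell cannot be told apart. The shift of B-lineage and erythroid marker genes above ran along with these falls, and its part in them was not tested.

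**Figure D1:**
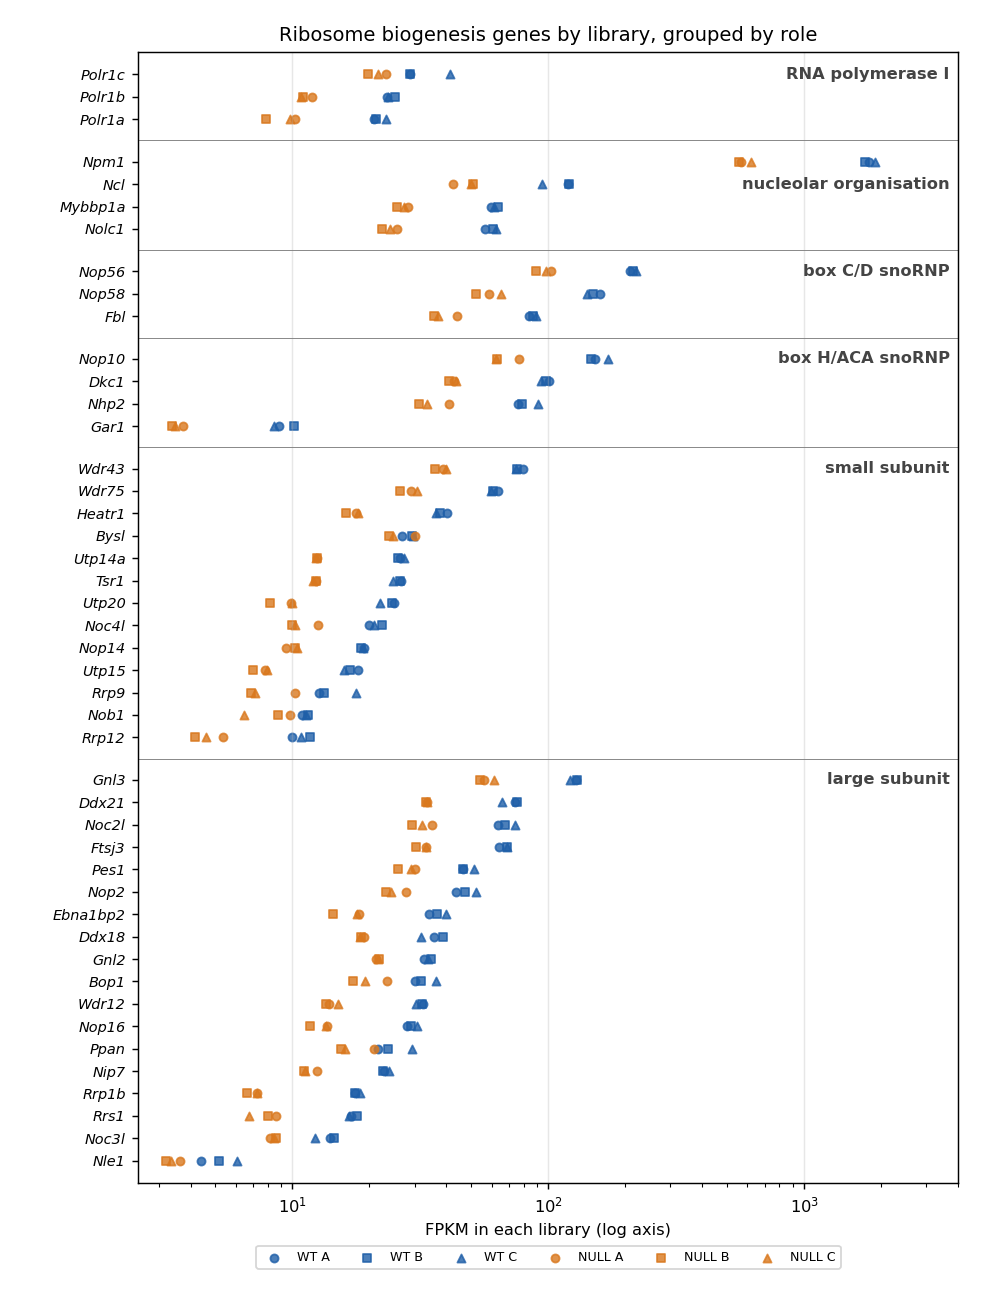
FPKM of the 45 genes in each of the 6 libraries on a log axis, grouped by role, with WT in blue and NULL in orange and the letter of the library as the marker shape. The 2 groups stand apart in every row except Bysl, where NULL A lies above all 3 WT points, and Npm1 stands far above the other genes in both groups.

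The 3 subunits of RNA polymerase I, the enzyme that transcribes ribosomal DNA, fell on the deposited scale, and Polr1c was not called with quantile normalization or on a common sum (adjusted p = 0.0699 and 0.118). Polr1a, the largest catalytic subunit, read 20.8, 21.2 and 23.3 FPKM in the WT libraries (A, B, C) and 10.2, 7.92 and 9.74 FPKM in the NULL libraries (A, B, C), an order kept below. The groups lay far apart, and NULL B was the lowest library. Its log2 change was -1.15 (SE 0.0983, adjusted p = 5.68e-05). Polr1b, the second largest catalytic subunit, dropped from 24.1 ± 0.988 to 11.2 ± 0.588 FPKM (SD, n = 3 each), a log2 change of -1.04. Polr1c, which RNA polymerase III also uses, read 28.9, 28.8 and 41.5 FPKM in WT and 23.3, 19.7 and 21.7 FPKM in NULL. Here WT C stood well above the other WT libraries, and the groups did not overlap. The log2 change of Polr1c was -0.58 (SE 0.143, adjusted p = 0.00835), and the ratio of Polr1c to Polr1b was 1.14 to 1.76 in WT and 1.80 to 2.01 in NULL.

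The 4 proteins that organise the nucleolus fell the most as a group, with a median log2 change of -1.24. Npm1 encodes nucleophosmin, an abundant nucleolar chaperone of ribosome assembly and a gene often mutated in myeloid leukaemia. The gene spans chromosome 11 from 33152287 to 33163206 on the minus strand of GRCm38. Npm1 had the highest FPKM of all members in each library, at 1789, 1729 and 1886 FPKM in WT and 564, 558 and 621 FPKM in NULL. Every NULL library was far below every WT library, and NULL held 32.2% of the WT mean. Its log2 change of -1.63 (SE 0.0984, adjusted p = 1.90e-05) was the largest fall among the members. Ncl, the nucleolar RNA-binding protein nucleolin, had -1.20, Nolc1, a snoRNP chaperone, -1.29 and Mybbp1a, a nucleolar MYB-binding protein, -1.16 on the log2 scale. Npm1 has 4 processed pseudogenes in the annotation that match it over at least 300 bases at 95% identity or more, and how reads shared with them were counted was not given in the sources used here. Like copies exist for Ddx18, Ddx21, Nop56, Pes1 and Wdr12, so the levels of these 6 genes are uncertain to that extent. For Wdr12 the matches were 1 pseudogene and Vmn1r88, which is annotated as protein-coding.

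The 3 box C/D snoRNP proteins among the members, which need not be the whole core of the particle, each fell by more than 1 on the log2 scale. Nhp2l1, counted with snoRNP assembly in a further list given below, fell by less than 1 (log2 change -0.95, SE 0.0820). Nop56, a scaffold of the particle, read 209, 214 and 220.3 FPKM in WT and 103, 89.3 and 97.7 FPKM in NULL. Its partner Nop58 read 159, 149 and 141 FPKM in WT and 58.7, 52.1 and 65.1 FPKM in NULL. For both genes the groups stood wide apart and NULL B was lowest. The log2 changes were -1.14 for Nop56 (SE 0.0766, adjusted p = 2.68e-05) and -1.34 for Nop58 (SE 0.0957, adjusted p = 3.17e-05). Fbl, fibrillarin, the methyltransferase of the particle, read 83.7, 87.4 and 89.5 FPKM in WT and 43.9, 35.6 and 37.1 FPKM in NULL, a log2 change of -1.14. Within each library Fbl kept a steady ratio to Nop56, 0.402 to 0.409 in WT and 0.380 to 0.428 in NULL. The ratio of Nop58 to Nop56 also overlapped between groups, at 0.641 to 0.763 in WT and 0.572 to 0.666 in NULL.

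The 4 box H/ACA proteins fell to between 38.5% (Gar1) and 43.7% (Dkc1) of their WT means, with log2 changes between -1.21 and -1.17. Nop10, a small structural protein of the particle, had the highest level, at 152, 147 and 170.5 FPKM in WT and 76.5, 63.1 and 62.6 FPKM in NULL. The lowest WT library was well above the highest NULL library, and NULL A was the highest of its group. The log2 change was -1.21 (SE 0.102, adjusted p = 5.48e-05). Dkc1 encodes dyskerin, the pseudouridine synthase that is mutated in dyskeratosis congenita, a bone marrow failure disorder. It read 101, 97.5 and 93.7 FPKM in WT and 42.8, 41.04 and 43.7 FPKM in NULL, with little spread in either group. Nhp2 read 76.2, 79.1 and 90.99 FPKM in WT and 40.8, 31.3 and 33.6 FPKM in NULL. Gar1 was the second lowest member in level in both groups, at 8.85, 10.1 and 8.50 FPKM in WT and 3.72, 3.38 and 3.46 FPKM in NULL. Again no NULL library reached a WT library in these 2 genes. Gar1 fell less than Nop10 with the pseudocount of 1 (-1.17) but more with a pseudocount of 0.1 (-1.35 against -1.22) and with quantile normalization (-1.15 against -0.75), so the order within the particle depended on these settings. Within each library the ratios of Dkc1, Nhp2 and Gar1 to Nop10 overlapped between groups, for Nhp2 at 0.502 to 0.538 in WT and 0.497 to 0.536 in NULL.

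Among 13 small subunit factors 12 fell, 7 of them by at least 1 on the log2 scale, and their median was -1.02. The t-UTP proteins load early on the precursor and link its transcription to its processing. Of the 4 in the list, Heatr1 read 40.1, 37.8 and 36.6 FPKM in WT and 17.8, 16.2 and 18.04 FPKM in NULL. Utp15 read 18.05, 16.7 and 15.97 FPKM in WT and 7.83, 7.04 and 7.95 FPKM in NULL. Both genes had their lowest value in NULL B and no overlap between groups. Wdr43, the highest of the small subunit factors, read 79.8, 75.7 and 74.9 FPKM in WT and 38.9, 35.98 and 39.98 FPKM in NULL. Wdr75 read 63.8, 60.8 and 59.5 FPKM in WT and 29.1, 26.3 and 30.8 FPKM in NULL. The 4 changes lay between -1.10 (Heatr1) and -0.99 (Wdr43) on the log2 scale. Ratios to Wdr43 were all lower in NULL without overlap, for Heatr1 0.488 to 0.503 in WT and 0.450 to 0.457 in NULL and for Wdr75 0.794 to 0.803 in WT and 0.731 to 0.770 in NULL, so Wdr43 fell slightly less than its partners.

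Utp20, a large scaffold of the early small subunit particle, changed most among the small subunit factors. It read 24.9, 24.5 and 22.05 FPKM in WT and 9.84, 8.18 and 9.95 FPKM in NULL. All 3 NULL libraries were far below WT, and the log2 change was -1.27 (SE 0.0896, adjusted p = 3.07e-05). The smallest change was in Bysl. Bysl, bystin, which acts in late steps of small subunit assembly, read 26.7, 29.4 and 29.6 FPKM in WT and 30.01, 23.8 and 24.6 FPKM in NULL. NULL A was the highest of the 6 libraries and NULL B the lowest, so the groups overlapped. Its log2 change was -0.13 (SE 0.0970, adjusted p = 0.268), which did not pass the threshold, and in rank of level among members it stood at 27 in WT and 17 in NULL. Without NULL A it was called lower, at -0.23 with an adjusted p of 0.0337. Exons of Bysl overlap those of the cyclin gene Ccnd3 on the opposite strand over 361 bases, 9.37% of the exonic length of Bysl. Ccnd3 was at 114, 133 and 141 FPKM in WT and 157, 123 and 131 FPKM in NULL, also highest in NULL A, and because the strand setting of the counting was not given in the sources used here, reads from the overlap cannot be told apart.

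Nob1, the nuclease that trims the end of small subunit RNA, read 10.9, 11.5 and 11.3 FPKM in WT and 9.76, 8.77 and 6.45 FPKM in NULL. WT was tight and NULL C was the lowest library, and the groups stood close to each other without overlap. The log2 change was -0.41 (SE 0.129, adjusted p = 0.0246), and it was not called without WT B (adjusted p = 0.0684) or without WT C (adjusted p = 0.0502). Nor was Nob1 called on the 3 other scales described below (adjusted p = 0.108, 0.0798 and 0.701 with median-of-ratios, quantile and common-sum scaling).

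All 18 large subunit factors fell on the deposited scale, 9 of them by at least 1 on the log2 scale, with a median of -0.98. On 3 other scales Ppan was not called on any, and Noc3l (adjusted p = 0.0509) and Nle1 (adjusted p = 0.101) were not called on the common sum. Gnl3, nucleostemin, a nucleolar GTPase abundant in stem and tumour cells, was the highest of them at 128, 129 and 121 FPKM in WT and 55.96, 53.8 and 61.2 FPKM in NULL. Rrp1b, a nucleolar processing factor, changed most, from 17.6, 17.5 and 18.4 FPKM in WT to 7.28, 6.66 and 7.30 FPKM in NULL. Both genes showed a wide gap between groups and little spread within them. Their log2 changes were -1.13 (SE 0.0727) for Gnl3 and -1.22 (SE 0.0634) for Rrp1b, and Rrp1b had the smallest adjusted p of all members (1.44e-05).

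The PeBoW proteins act as 1 complex in large subunit processing, but their transcripts did not keep a constant ratio. Pes1 read 46.3, 46.4 and 51.3 FPKM in WT and 30.1, 25.8 and 29.1 FPKM in NULL. Bop1 read 30.1, 31.9 and 36.5 FPKM in WT and 23.4, 17.2 and 19.2 FPKM in NULL. Wdr12 read 32.2, 32.1 and 30.3 FPKM in WT and 13.9, 13.5 and 15.03 FPKM in NULL. No NULL library reached a WT library in any of the 3 genes, and NULL A was the closest for Pes1 and Bop1. Their log2 changes were -0.74 (SE 0.0801), -0.70 (SE 0.120) and -1.10 (SE 0.0659) respectively. The ratio of Wdr12 to Pes1 was 0.590 to 0.696 in WT and 0.462 to 0.522 in NULL, without overlap, while the ratio of Bop1 to Pes1 overlapped at 0.650 to 0.711 in WT and 0.660 to 0.778 in NULL. A similar contrast appeared between nucleolar partners Noc2l and Noc3l, whose log2 changes were -1.07 and -0.63, with a ratio of Noc3l to Noc2l of 0.165 to 0.220 in WT and 0.233 to 0.294 in NULL. These ratios are descriptions of 3 libraries against 3, with no test. Pes1 and Wdr12 both have near copies, as given above, so their ratio carries that uncertainty.

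The smallest changes of large subunit factors were in Ppan and Nle1. Ppan read 21.6, 23.7 and 29.2 FPKM in WT and 20.8, 15.5 and 16.00 FPKM in NULL. NULL A was just under the lowest WT library. The log2 change was -0.49 (SE 0.141, adjusted p = 0.0166), and it was not called without NULL B (adjusted p = 0.0610) or without NULL C (adjusted p = 0.0618). Ppan also lost its call on all 3 other scales, with changes of -0.34, -0.25 and -0.12 (adjusted p = 0.0510, 0.129 and 0.341 with median-of-ratios, quantile and common-sum scaling). Nle1, which binds the large subunit precursor late in its assembly and whose level was the lowest of all members, read 4.38, 5.17 and 6.09 FPKM in WT and 3.65, 3.20 and 3.35 FPKM in NULL. The groups did not overlap, and the log2 change was -0.49 (SE 0.108, adjusted p = 0.00477). On the common sum described below it was -0.18 and not called (adjusted p = 0.101).

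**Figure D2:**
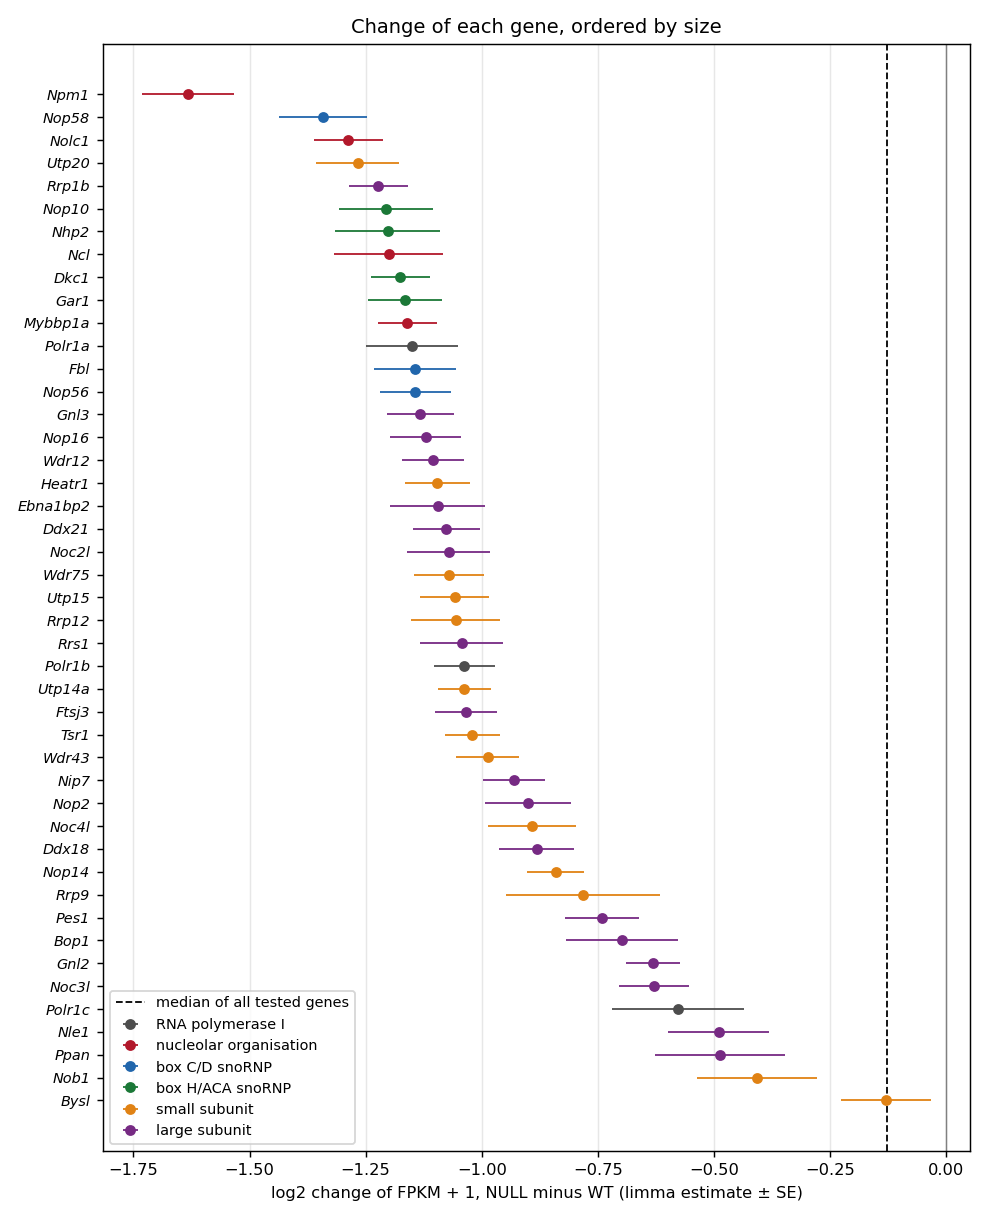
Log2 change of FPKM + 1 (NULL minus WT) for each of the 45 genes with its standard error from limma, ordered by size and coloured by role, with a dashed line at the median of all tested genes. All points lie left of 0, from -1.63 for Npm1 to -0.13 for Bysl, and the nucleolar organisation and snoRNP genes lie below -1 without exception.

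The other ribosome biogenesis genes, a further list of 125 from the same pathway with 124 tested, had a smaller median fall. Of these 113 were called lower, 2 higher and 9 not called, 26 fell by at least 1 on the log2 scale, and the median was -0.74 (range -1.64 to 0.48). Over all tested genes 42% were called lower, 23.3% higher, and 5.99% fell by at least 1. On 3 other scales described below, between 79 and 104 of the 124 were called lower and between 2 and 6 higher. The share of all tested genes called lower on those scales was 20.6% to 33.1%. Both lists were chosen with earlier results of these data known, and the part of that choice in the difference between their medians was not tested. In the RNA polymerase I machinery 9 of 12 fell, with the largest fall in the polymerase subunit Cd3eap, which read 10.7, 13.2 and 12.3 FPKM in WT and 5.35, 4.34 and 4.92 FPKM in NULL. The only genes of the 124 called higher were in this list too. Znrd1, a small polymerase I subunit, read 21.04, 21.1 and 19.4 FPKM in WT and 28.99, 29.4 and 28.7 FPKM in NULL (log2 change 0.48, SE 0.0609, adjusted p = 3.00e-04). Ttf1, the termination factor, read 12.3, 13.1 and 12.4 FPKM in WT and 15.7, 15.2 and 16.2 FPKM in NULL (log2 change 0.30, SE 0.0604, adjusted p = 0.00331). Each NULL library was above each WT library in both genes.

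Small subunit factors outside the 45 fell in 36 of 39, led by Pno1, which read 32.7, 32.1 and 27.2 FPKM in WT and 10.01, 9.34 and 11.2 FPKM in NULL. Large subunit factors fell in 41 of 44, led by Lyar at 69.4, 67.4 and 68.2 FPKM in WT and 23.1, 19.2 and 21.7 FPKM in NULL, with a log2 change of -1.64 that matched Npm1 in size. In both genes every NULL library was below every WT library by a wide margin. The RNA exosome and its cofactors fell in 13 of 14, with the largest fall in the exosome subunit Exosc8, which read 48.1, 46.2 and 43.2 FPKM in WT and 21.4, 16.4 and 19.9 FPKM in NULL. Of 15 tested genes of snoRNP assembly and RNase MRP 14 fell, with the largest fall in Rpp40, a subunit of RNase MRP and RNase P, which read 4.42, 4.01 and 4.15 FPKM in WT and 1.19, 0.921 and 1.31 FPKM in NULL. Here too the groups did not overlap.

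**Figure D3:**
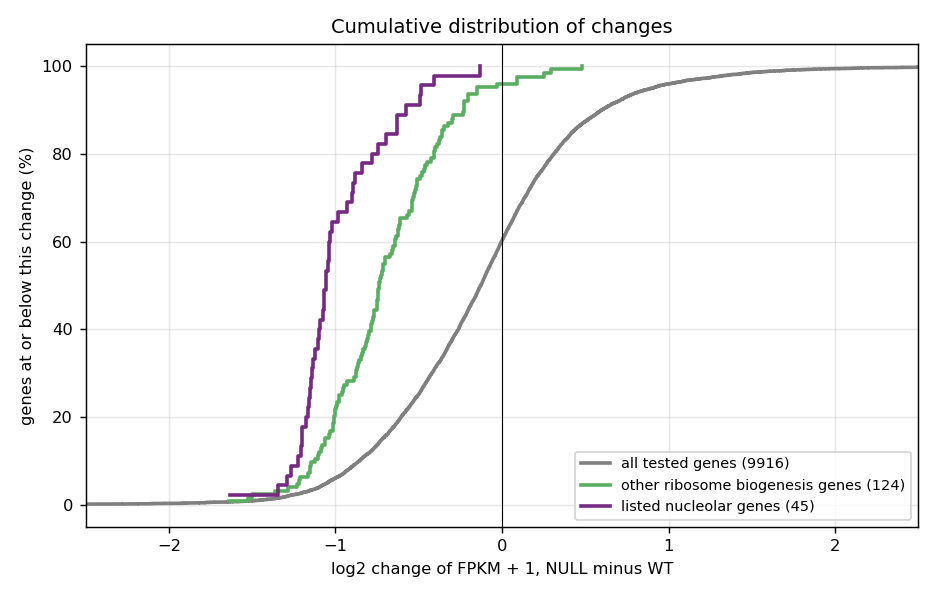
Cumulative share of genes (%) at or below each log2 change of FPKM + 1, NULL minus WT, for the 45 listed genes, the 124 other ribosome biogenesis genes and all 9916 tested genes. The curve of the 45 genes stands left of the others except in the left tail, with medians of -1.06, -0.74 and -0.13. Both lists were chosen with earlier results of these data known.

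The size of the falls depended on how the libraries were put on a common scale, and the sign of nearly all did not. The deposited scale put the median of all genes at -0.13. Median-of-ratios rescaling put it at 0.0098, quantile normalization at -0.030 and rescaling to a common sum that left out small RNA genes at 0.20, and the median of the 45 members became -0.92, -0.74 and -0.70 respectively. Called lower were 42, 41 and 39 members on these scales, beside 32.7%, 33.1% and 20.6% of all tested genes. Falls of at least 1 on the log2 scale were left in 12, 5 and 1 members, beside 3.26%, 2.89% and 1.41% of all tested genes. Over all genes the split of calls was 4168 lower and 2311 higher as deposited, 3242 and 3143 with median-of-ratios rescaling, 3278 and 2824 with quantile normalization, and 2046 and 4480 on the common sum. On each of the 3 other scales 44 of 45 members lay below the median of all genes, and 39 members were called lower on all 4, all 11 of the nucleolar organisation and snoRNP genes among them. Bysl was the exception, with log2 changes of 0.022, 0.16 and 0.24 on the 3 other scales, the last called higher (adjusted p = 0.0381). Polr1c, Nob1, Ppan, Noc3l and Nle1 were called lower as deposited but not on every other scale.

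**Figure D4:**
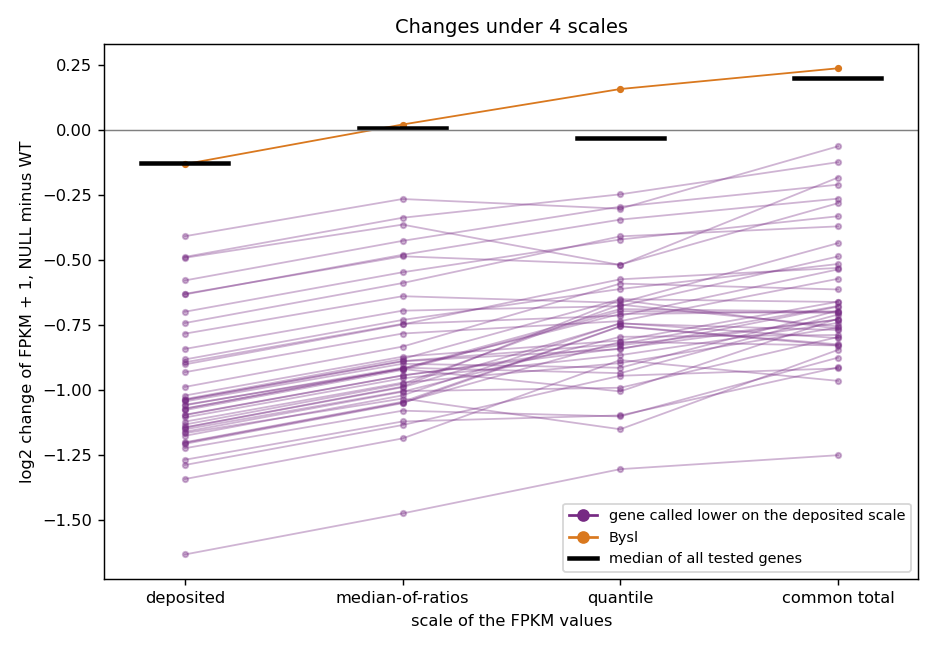
Log2 change of FPKM + 1 (NULL minus WT) of the 45 genes under the deposited scale and 3 others, with 1 line per gene and black bars for the median of all tested genes. Most lines climb from left to right, the medians of the members being -1.06, -0.92, -0.74 and -0.70, and Bysl is the only line above 0 on the 3 other scales.

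The order of levels among members was much the same in both groups. Npm1, Nop56, Nop10, Nop58, Gnl3, Ncl, Dkc1 and Fbl held the first 8 ranks in that order in WT and in NULL, and Gar1 and Nle1 the last 2. Spread within groups was small, with a median coefficient of variation over members of 5.59% in WT and 7.0% in NULL, and the highest were 22.0% (Polr1c in WT) and 22.9% (Rrp9 in NULL). Neighbours in the order such as Nop10 and Nop58 therefore did not differ beyond their spread in WT. Members with higher WT levels tended to have larger falls across the 45 genes (Pearson's r -0.556, Spearman's rho -0.484), a description over genes that share libraries, on a scale whose pseudocount of 1 understates changes at low levels. The WT values also enter both the level and the change, which by itself pulls such a correlation below 0, and the size of that pull was not tested.

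Differences between libraries of 1 group rose with GC content across the members, and only in NULL did most members share a highest and a lowest library. NULL A held the highest NULL value for 29 of the 45 members and NULL B the lowest for 34, while WT C held the highest WT value for 22 and the lowest for 16. Across the 45 members the difference of NULL A from the mean of NULL B and C rose with the GC content of the longest transcript (r 0.733, rho 0.758), as did that of WT C from WT A and B (r 0.606, rho 0.574). Over the 9331 tested genes with a GC value the corresponding correlations were r 0.266 (rho 0.633) and r 0.237 (rho 0.487). The change between groups correlated with GC at r 0.423 (rho 0.352) across members, and at r 0.160 (rho 0.187) over the tested genes. Rrp9, the most GC-rich member at 59.9%, had the largest excess in NULL A, 0.48 on the log2 scale. The part of GC in the group difference was not tested.

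**Figure D5:**
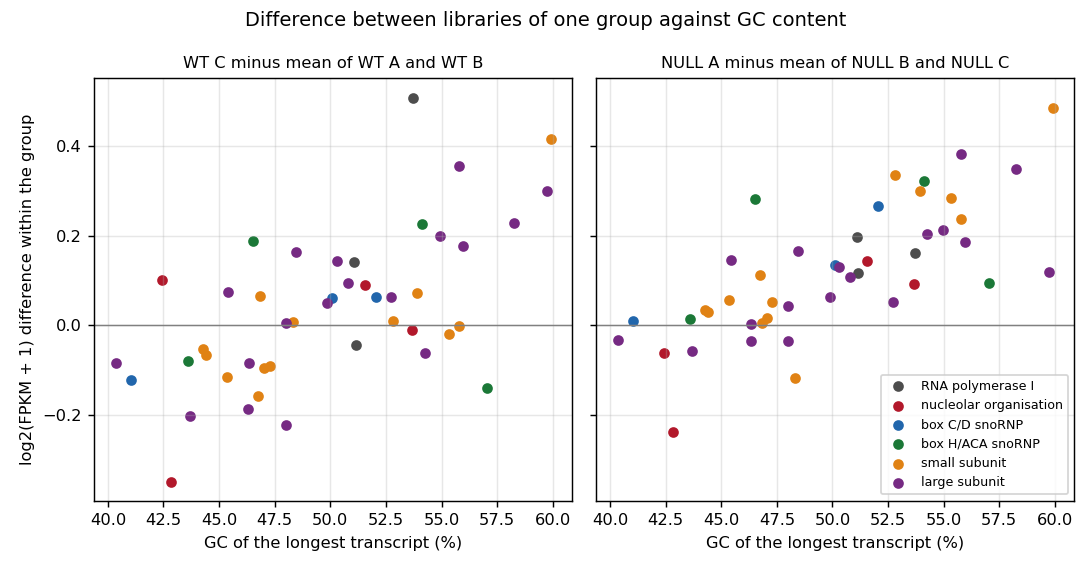
Difference in log2(FPKM + 1) between libraries of 1 group for the 45 genes, against the GC content (%) of the longest transcript, for WT C against WT A and B (left) and NULL A against NULL B and C (right), coloured by role. Points rise from left to right in both panels, with r 0.606 and r 0.733.

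Members with and without a motif at the start had similar median changes. The median log2 change was -0.99 in the 7 members with an E-box and -1.07 in the 32 without, -1.05 in the 12 with an ETS site and -1.07 in the 27 without. Members with an E-box ranged from Utp20 (-1.27) to Nle1 (-0.49). Members with none of these motifs ranged from Nop58 (-1.34) to Bysl (-0.13).

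Within 8 members lie 23 annotated snoRNA genes, most of which encode the guide RNAs of the snoRNPs. They lie in Nop56 (5), Nop58 (4), Ncl, Wdr43 and Gnl3 (3 each), Tsr1 and Ppan (2 each) and Dkc1 (1). Of these 11 were in the table and 10 were at 0 in all 6 libraries. Snora75, inside Ncl, read 23.1 FPKM in WT A and 16.9 FPKM in NULL A and 0 in the other 4 libraries, so the guides could not be compared with their host genes. Exons of 16 members overlap a gene on the opposite strand, and the overlap was over 9% of exonic length in 4 of them, Bysl, Tsr1 (34.2%, with Srr), Noc2l (20.9%, with Samd11) and Utp14a (18.9%, with 9530027J09Rik).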

How the data were processed

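Polyadenylated RNA was made into strand-keeping libraries for paired-end sequencing, per the labels' protocols. The deposited values are FPKM for 23848 rows per library. The submitters' processing notes name Bowtie and Cufflinks, and mm10 and GRCm38 as builds, without roles or versions. The annotation, filters, scaling and strand setting were not given in the sources used here. Table and library files differed in 0 values. For 256 repeated symbols only the row of highest mean was used, which removed 489 rows.

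The members, roles, other lists and motifs were chosen with earlier results of these data known. Tests used limma 3.58.1 in R 4.3.3 (empirical Bayes with a variance trend) on log2(FPKM + 1). No count model was used, since FPKM are not counts. Values per library are given for the highest and most changed member of each role, the 5 smallest changes, members not called lower and the members of 4 complexes, and in the other lists for the largest fall and any gene that rose. Depth came from steps among low FPKM and transcript lengths of GENCODE M21 and supports no interval. By that estimate Gar1 and Nle1 rest on as few as 88 and 121 fragments in a library. Near copies were aligned with BLAST 2.17.0. The fit was tested on simulated data, and 18 alternatives were run.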

Additional observations from a re-analysis of the deposited data

How the results depend on the processing

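Over the members, 788 of 809 single-gene results under the 18 alternatives kept their direction and their side of the threshold, 17 were no longer called, 1 (Bysl without NULL A) became called and 3 turned round, all in Bysl (0.159 with quantile normalization, 0.0223 with median-of-ratios rescaling and 0.239 on the common total). The cause was not tested. The members' median log2 change was -0.742 with quantile normalization, -0.916 with median-of-ratios rescaling, -0.698 on a common total that left out small RNA genes and -0.907 with a pseudocount of 5. The median of all genes was -0.0296, 0.00978, 0.202 and -0.0852 under the same 4 settings, -0.00117 with no filter on low values and -0.215 with a filter at 5 FPKM. On the common total 2046 genes were lower, 4480 higher, and 1 member and 6 other pathway genes were higher. With the filter at 5 FPKM 1364 genes were higher, fewer genes were tested, and neither Gab2 nor Nle1 was tested. Members that fell by at least 1 numbered 5, 12 and 1 on the quantile, median-of-ratios and common-total scales, and 12 with a pseudocount of 5. Leaving out 1 library at a time left between 43 and 45 members called lower. Same-lettered libraries had correlated deviations of 0.0735 (A), 0.355 (B) and 0.133 (C), and each library correlated best with its own letter, which is a hint from the data and not from the design, so the letters were not taken as pairs. A replicate block on the letter gave 3794 genes lower and 2050 higher with 44 members lower and 0 higher. FPKM without counts give no depth interval for single values.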
